A study of Homo sapiens with 6 samples.

Results

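The genes described here are 37 genes of redox defence and of the NRF2 pathway, chosen by name from the 60664 genes of the deposited table. Of these, 34 reached a level of at least 1 TPM (a unit of RNA sequencing that corrects for transcript length and sums to nearly the same total in every library) in at least 3 of the 6 libraries and were tested. AKR1C1, AKR1B10 and ABCC2 stayed below that level. The libraries came from SW480, a widely used human cell line of colorectal adenocarcinoma origin whose genotype the labels give as WT. In 3 libraries the cells had been given buffer and in 3 they had been given Amuc_0904, which is named in the way genes of the gut microbe Akkermansia muciniphila are tagged. The labels give neither the dose nor the time of exposure, and they do not say whether replicates were separate cultures, so p-values measure only the spread between these libraries, which may be technical. The comparison asks which of these genes differed in transcript level between the treatments.

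NRF2, encoded by NFE2L2, is a transcription factor that the adaptor KEAP1 holds at a low level by directing its ubiquitination. Oxidants and electrophiles modify cysteines of KEAP1, after which NRF2 accumulates and, with small MAF proteins, binds antioxidant response elements near genes for glutathione synthesis, thioredoxin recycling, NADPH supply and quinone and heme breakdown. Because NRF2 is mainly controlled as a protein, its mRNA is a weaker guide to its activity than the mRNAs of its targets. The other genes here encode enzymes that remove superoxide and peroxides, and SOD2 among them is also a known target of NF-kB.

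Few of these genes differed between the treatments. SOD2, the superoxide dismutase of the mitochondrial matrix, rose 1.42-fold in cells given Amuc_0904, and it was the 1 member of 34 past the threshold of limma's test (adjusted p under 0.05, adjusted over all 14421 tested genes, of which 1.37% passed). The call was lost after removal of the trend of expression with the GC content of transcripts in each library (adjusted p = 0.074), with the replicate number as a block (0.060) and in 5 of the 6 fits that left out a single library. The sensor, the factor and the best known targets, among them HMOX1, NQO1, GCLC and GCLM, did not pass. For 32 of the 34 tested genes the 95% interval of the difference, taken on log2(TPM + 1), lay within 1.5-fold either way. The exceptions were SOD2 and GPX2. This scale understates changes of low genes, and OSGIN1 (7.79 TPM with buffer) came close to the bound at 1.48-fold. The share within 1.5-fold was 76.8% among all tested genes and 89.6% among 96 tested genes of a wider redox list. These shares were not matched for expression level, and 17 of the members were above 100 TPM in buffer libraries.

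Promoter sequences from RefSeq (GRCh38.p14, from 250 bases before to 50 bases after each annotated start) were found for 28 of the 37 genes, as 39 promoters. They were searched on both strands for the core of the antioxidant response element, spelled TGACNNNGC. Of the 39 promoters 7 held it (17.9%, 6 genes), against 13.3% of all 35116 promoters of that length. Most of the searched members thus carried no such letters in this window. The 9 members without a promoter sequence, HMOX1 and GSR among them, were not searched, and neither was sequence outside the window. One match per gene is shown for the 6 genes, because these are the searched members whose promoters hold the letters that NRF2 is known to read. The lines run 5′ to 3′, with the core in capitals and 10 bases on each side.
GCLM (chr1:93909446-93909474, plus strand): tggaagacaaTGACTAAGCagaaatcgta
GPX2 (chr14:64942849-64942877, plus strand): atccccaggaTGACTTAGCaaaaacaggt
GSTP1 (chr11:67583736-67583764, plus strand): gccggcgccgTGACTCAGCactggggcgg
KEAP1 (chr19:10502784-10502812, plus strand): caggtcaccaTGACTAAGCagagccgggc
PGD (chr1:10398853-10398881, minus strand): agcacctagaTGACATTGCcccggcgagg
TXNRD1 (chr12:104215670-104215698, plus strand): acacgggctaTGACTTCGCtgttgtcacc

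The log2 fold changes of these 6 genes ran from -0.27 to 0.12. Of the 6, 5 had lower mean levels in cells given Amuc_0904 and TXNRD1 had a higher one, and none passed the threshold in limma's test. Among all tested genes 62.5% had a log2 fold change below 0, and after each library's GC trend was removed 3 of the 6 (GCLM, GPX2 and KEAP1) were below 0. A match in a promoter is a description of its letters and not of binding.

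SOD2 has 4 annotated starts in RefSeq, and the one used by 6 of the 7 basic transcripts of that symbol in GENCODE 29 has the upstream sequence below. It is shown because SOD2 is the member that passed the threshold in the main fit, a call that several other settings lost. The sequence is the minus strand, with 80.8% G and C, and the capitals mark 6 matches of the GC box, spelled GGGCGG, some of which overlap.
SOD2 (chr6:159693242-159693491): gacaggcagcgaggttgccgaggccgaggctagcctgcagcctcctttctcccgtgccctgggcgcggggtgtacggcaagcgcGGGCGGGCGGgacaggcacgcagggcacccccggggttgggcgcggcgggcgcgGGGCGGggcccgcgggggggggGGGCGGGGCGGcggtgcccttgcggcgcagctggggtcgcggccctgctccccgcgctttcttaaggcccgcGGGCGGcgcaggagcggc

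GC boxes were common among these genes, with 31 of 39 promoters holding at least 1 (79.5%) against 45% of all promoters. Neither the antioxidant response element core nor the NF-kB motif, searched in a single spelling, occurred in these 250 bases. The NF-kB motif was in 0 of the 39 member promoters and in 0.558% of all promoters. A motif this rare is likely to be absent from any 39 promoters, so its absence here cannot be read. Sequence outside these promoters was not searched, and a part of NF-kB in the level of SOD2 was not tested.

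The libraries are described first, since some of their features moved with the treatment. The listed TPM summed to between 996107 and 997036, between 14244 and 14586 genes reached 1 TPM, and the depth of each library is unknown. Of 10 colorectal epithelial markers 5 were at or above 1 TPM in at least 3 libraries (EPCAM, KRT8, KRT18, KRT19 and CDX2), while KRT20, CDX1, VIL1, CDH17 and GPA33 were below it. The 10 summed to 7900 to 8143 TPM in buffer and to 7088 to 7377 TPM in treated libraries. The 8 leukocyte markers summed to 3.89 to 4.81 TPM in buffer and 5.71 to 6.27 TPM in treated libraries, with PTPRC listed at 0 throughout. CD68 and CD14 were the 2 of the 8 at or above 1 TPM in at least 3 libraries. CD68 was at 1.68, 1.10 and 1.48 TPM in buffer and at 3.11, 2.33 and 3.08 TPM in treated libraries, all higher. CD14 was at 1.14, 1.44 and 1.66 TPM and at 1.06, 2.24 and 1.43 TPM, with overlapping groups. The 6 fibroblast markers summed to 2.32 to 3.76 TPM and 1.71 to 2.22 TPM (DCN listed at 0), and the 5 endothelial markers to 0.25 to 0.8 TPM and 0.16 to 0.54 TPM (KDR and TEK listed at 0). For each library, log2 expression was also taken relative to each gene's mean over the 6 libraries. The slope of these relative values per 10 points of transcript GC content ran from 0.00451 to 0.0931 in buffer libraries. In treated libraries it ran from -0.112 to 0.00213, without overlap. The part of GC content in each result below was not tested.

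Among all tested genes 197 of 14421 (1.37%) passed the threshold in either direction, 53 of them higher (0.368%) and 144 lower (0.999%). That split depended on the scaling, since 73.1% of the calls were lower as deposited, 49.4% after centring each library on its median and 34.2% after each library's trend with GC content was removed. Among the tested members 1 rose and 0 fell in limma's test. With the GC trend removed 0 members passed, where 0.819% of all genes did, and 1 passed after centring (0.589% of all genes) and 1 after quantile normalisation (0.707%). At an unadjusted p under 0.05 there were 8 members (23.5%), 2 higher and 6 lower, beside 20.8% of all tested genes (4.49% higher and 16.3% lower), so the counts are near the background. The treated libraries lay all above the buffer libraries for 3 members and all below for 7, which makes 10 of 34 without overlap (29.4%), again near the 27.1% of all tested genes (7.0% all above and 20.1% all below). The median log2 fold change of the members was -0.05, and that of all tested genes was -0.06. A log2 fold change below 0 was found for 22 of 34 members (64.7%) and for 62.5% of all tested genes.

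**Figure D1:**
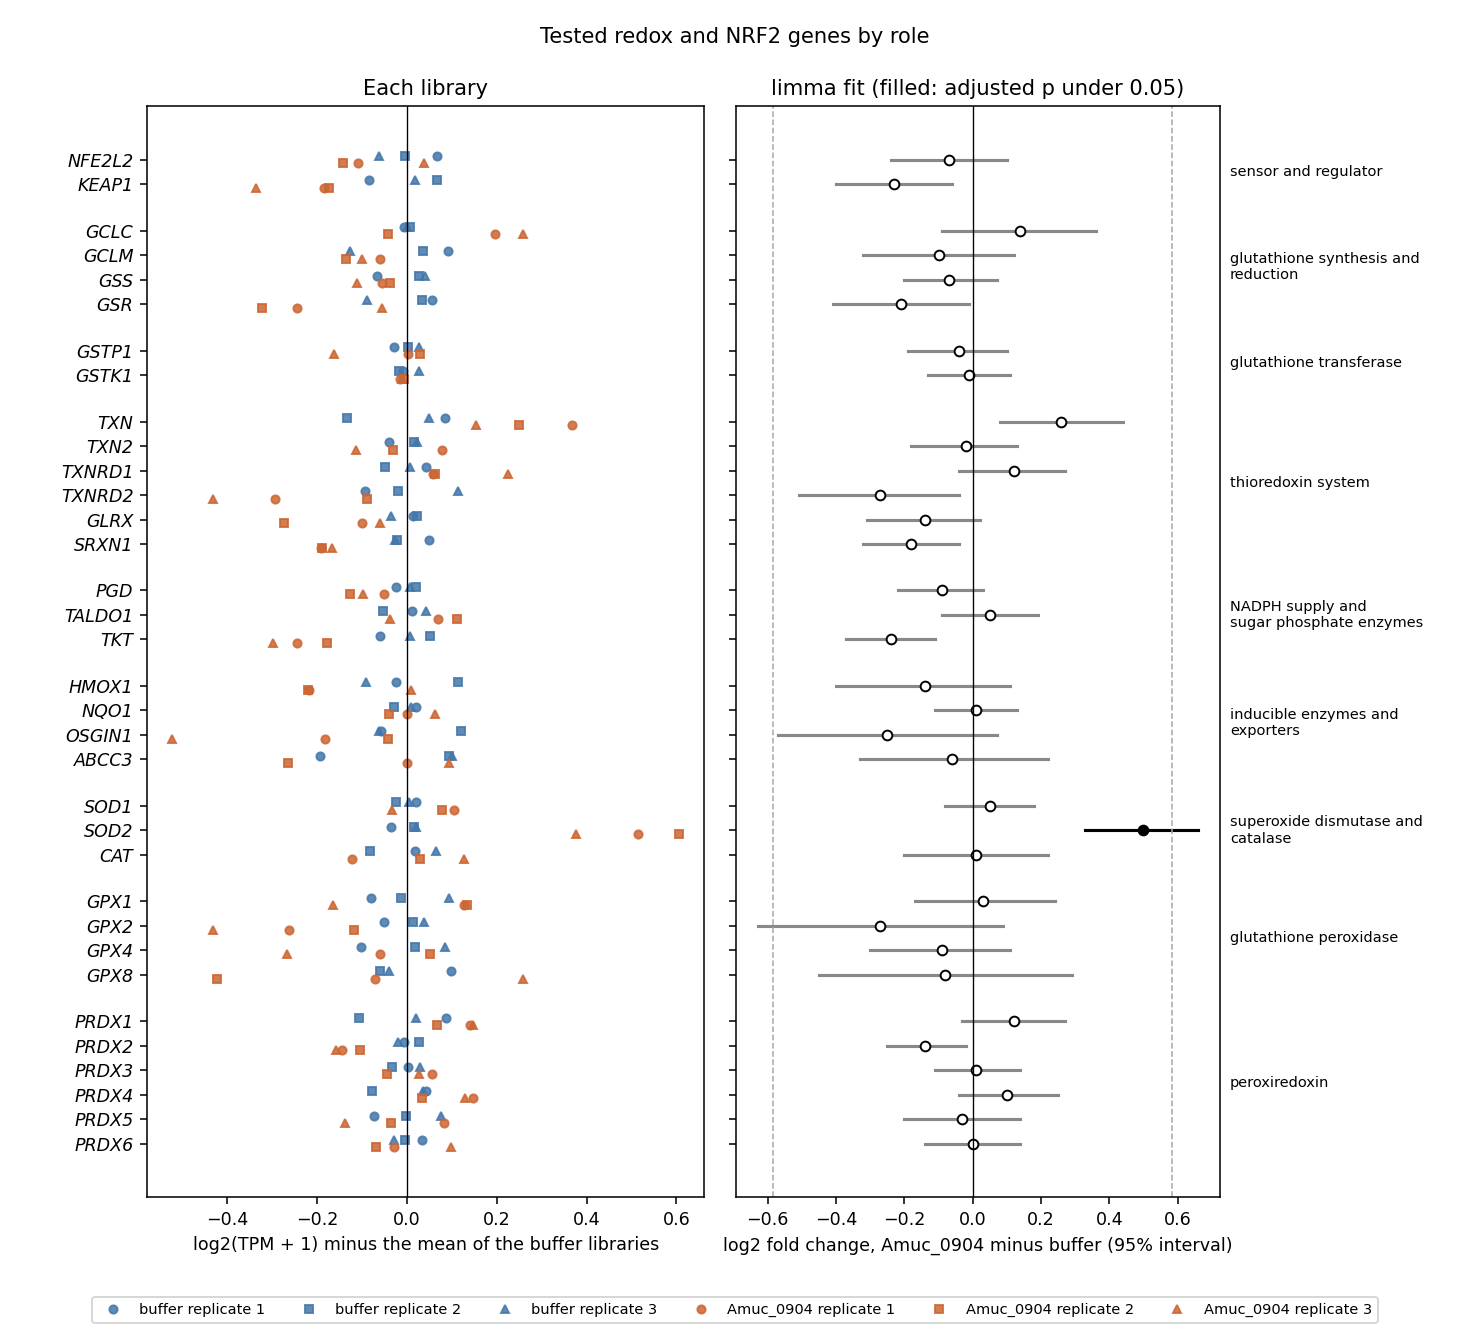
The 34 tested genes ordered by role. The left panel plots log2(TPM + 1) in each library minus the mean of the 3 buffer libraries, and the right panel plots limma's log2 fold change with its 95% interval, with dashed lines at 1.5-fold. SOD2 is the single filled point, and all 3 of its treated libraries lie to the right of its buffer libraries.

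The regulators were measured at moderate levels. NFE2L2 was listed at 51.5, 49.0 and 47.1 TPM in the buffer libraries and at 45.5, 44.5 and 50.5 TPM in the treated libraries. The ranges overlapped, with Amuc_0904 replicate 3 inside the buffer range, and the log2 fold change was -0.07 (95% interval -0.24 to 0.10, adjusted p = 0.63 in limma). KEAP1 was at 55.7, 62.1 and 60.0 TPM with buffer and at 52.0, 52.4 and 46.7 TPM with Amuc_0904. Each treated library was below each buffer library, but the difference in the mean (59.3 ± 3.24 against 50.4 ± 3.17 TPM, SD, n = 3 each) did not pass the threshold (log2 fold change -0.23, SE 0.07, limma adjusted p = 0.13). KEAP1 has a GC-rich transcript (60.3% G and C), and its log2 fold change was -0.06 after each library's GC trend was removed.

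Glutathione is made in steps catalysed by glutamate-cysteine ligase, a complex of the catalytic subunit GCLC and the modifier subunit GCLM, and by glutathione synthetase, GSS, and its oxidised form is reduced again by GSR. None of the 4 genes passed the threshold. GCLC was at 13.2, 13.3 and 13.2 TPM in buffer libraries and at 15.3, 12.8 and 16.0 TPM in treated libraries. The buffer libraries were close together, and the treated libraries lay on both sides of them (log2 fold change 0.14, 95% interval -0.09 to 0.36, limma adjusted p = 0.46). GCLM was at 10.02, 9.61 and 8.47 TPM and at 8.93, 8.42 and 8.65 TPM respectively. Its groups overlapped, and its difference of -0.10 on the log2 scale had the opposite sign to that of GCLC (limma adjusted p = 0.61). GSR was at 37.2, 36.6 and 33.6 TPM with buffer and at 30.0, 28.4 and 34.4 TPM with Amuc_0904. Amuc_0904 replicates 1 and 2 were below every buffer library and replicate 3 was not (log2 fold change -0.21, 95% interval -0.41 to -0.01, limma adjusted p = 0.23). GSS had 130.2 ± 5.31 TPM with buffer and 124 ± 3.32 TPM with Amuc_0904 (SD, n = 3 each).

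GSTP1, which joins glutathione to electrophiles, had the highest level of all 37 genes. It was at 1353, 1384 and 1407 TPM in buffer libraries and at 1383, 1409 and 1234 TPM in treated libraries. Amuc_0904 replicate 3 was the lowest library and the other treated libraries were within or just above the buffer range. The log2 fold change was -0.04 (95% interval -0.19 to 0.10, limma adjusted p = 0.75), with the sign turned to 0.15 after removal of the GC trend and to 0.04 after centring. GSTK1, a transferase of mitochondria and peroxisomes, was at 125, 124 and 128 TPM and at 124, 125 and 125 TPM. Its groups overlapped, and the interval of its log2 fold change ran from -0.13 to 0.11.

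Thioredoxin, encoded by TXN in the cytosol and by TXN2 in mitochondria, reduces protein disulfides and is itself reduced by the selenoenzymes TXNRD1 and TXNRD2. TXN was at 888, 764 and 866 TPM with buffer and at 1080.3, 996 and 932 TPM with Amuc_0904. Every treated library was above every buffer library, and the means were 839 ± 66.2 and 1003 ± 74.2 TPM (SD, n = 3 each), with a log2 fold change of 0.26 (SE 0.08) that did not pass the threshold (limma adjusted p = 0.12). After removal of the GC trend the log2 fold change of TXN was 0.25. TXN2 had 66.1 ± 1.57 and 65.1 ± 4.41 TPM, and its groups overlapped.

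TXNRD2 was at 26.9, 28.3 and 31.1 TPM in buffer libraries and at 23.2, 26.9 and 21.0 TPM in treated libraries. Amuc_0904 replicate 2 reached the buffer range, the other treated libraries were below it, and the log2 fold change was -0.27 (95% interval -0.51 to -0.04, limma adjusted p = 0.19). TXNRD2 has 62.6% G and C in its transcript, and after removal of the GC trend the difference was -0.08. TXNRD1, which carries the core motif in its promoter, had 94.0 ± 3.01 TPM with buffer and 102 ± 6.96 TPM with Amuc_0904, the treated libraries all higher (log2 fold change 0.12, limma adjusted p = 0.37). SRXN1, the sulfiredoxin that restores overoxidised peroxiredoxins and a known NRF2 target, was at 43.0, 40.9 and 40.8 TPM and at 36.3, 36.3 and 36.9 TPM. The 3 treated libraries were almost equal and all below the buffer libraries, with a log2 fold change of -0.18 (95% interval -0.32 to -0.04) and a limma adjusted p of 0.15. After removal of the GC trend the difference was -0.08. The glutaredoxin GLRX also had all 3 treated libraries below the buffer libraries, at 98.2 ± 2.17 and 88.9 ± 6.95 TPM (limma adjusted p = 0.29).

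The level of the cytosolic member of each pair was also taken relative to the mitochondrial one within each library. TXN was 13.8, 11.4 and 12.9 times the level of TXN2 in buffer libraries and 15.5, 15.4 and 15.3 times in treated libraries. TXNRD1 was 3.60, 3.21 and 3.03 times the level of TXNRD2 in buffer libraries and 4.21, 3.64 and 5.24 times in treated libraries. In both pairs every treated library was above every buffer library. The cytosolic genes have transcripts of lower GC content (TXN 42.8% and TXNRD1 44.8%) than their partners (TXN2 56.2% and TXNRD2 62.6%). After removal of the GC trend the log2 fold changes were 0.25 for TXN and 0.11 for TXN2. For TXNRD1 and TXNRD2 they were 0.13 and -0.08, and the part of GC content in these ratios was not tested. Such ratios were taken for 5 pairs, chosen after their values were seen, so they are given without a test. SOD2 over SOD1, given further on, also had no overlap, and the remaining pairs overlapped. GCLC over GCLM was 1.32, 1.39 and 1.56 with buffer and 1.72, 1.52 and 1.85 with Amuc_0904. NFE2L2 over KEAP1 was 0.925, 0.789 and 0.785 with buffer and 0.876, 0.848 and 1.08 with Amuc_0904.

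**Figure D2:**
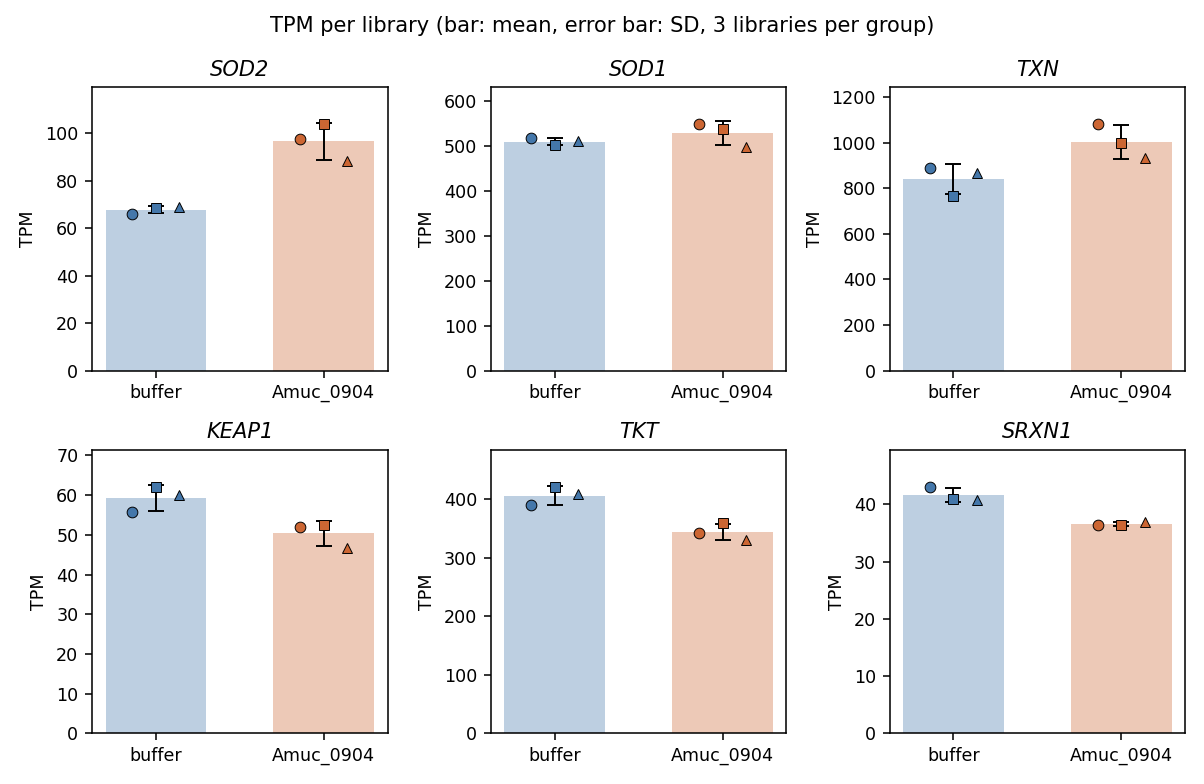
TPM of SOD2, SOD1, TXN, KEAP1, TKT and SRXN1, with a bar for the mean, an error bar for the SD and a point for each of the 3 libraries per group, on axes that start at 0. For SOD2 and TXN the treated points lie above the buffer points, for KEAP1, TKT and SRXN1 below them, and for SOD1 they overlap. SOD2 alone passed the threshold.

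NADPH for glutathione and thioredoxin reduction comes largely from the pentose phosphate pathway, where PGD makes NADPH and TKT and TALDO1 rearrange sugar phosphates. TKT was at 390.1, 422 and 409 TPM in buffer libraries and at 343, 359 and 330.5 TPM in treated libraries. The groups were clearly apart, with means of 407 ± 15.8 and 344 ± 14.3 TPM (SD, n = 3 each), and TKT came nearest to the threshold without passing it (log2 fold change -0.24, SE 0.06, limma adjusted p = 0.078). After removal of the GC trend its log2 fold change was -0.11. PGD was at 118, 122 and 120.5 TPM with buffer and at 116, 109.8 and 112 TPM with Amuc_0904. Its treated libraries were all lower by a small margin, with a log2 fold change of -0.09 (limma adjusted p = 0.37) that became 0.01 after removal of the GC trend. TALDO1 was at 355, 339.8 and 363 TPM and at 369.9, 381 and 343 TPM, and its groups overlapped (log2 fold change 0.05, limma adjusted p = 0.70).

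The inducible enzymes include the genes most often read as signs of NRF2 activity. HMOX1, the inducible heme oxygenase, was low in these cells, at 7.88, 8.77 and 7.48 TPM with buffer and at 6.76, 6.75 and 8.08 TPM with Amuc_0904. The third treated library lay inside the buffer range, and the log2 fold change was -0.14 (95% interval -0.40 to 0.11, limma adjusted p = 0.50), or 0.01 after removal of the GC trend. NQO1, a quinone reductase, was at 282, 273 and 280.3 TPM and at 278, 271 and 291 TPM. The groups covered nearly the same range, and the interval of its log2 fold change, -0.11 to 0.13, was among the narrowest of the set.

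OSGIN1, an oxidative stress-induced growth inhibitor, was at 7.43, 8.54 and 7.41 TPM in buffer libraries and at 6.74, 7.52 and 5.11 TPM in treated libraries. One treated library overlapped the buffer range (log2 fold change -0.25, 95% interval -0.57 to 0.07, limma adjusted p = 0.35), and the difference was -0.04 after removal of the GC trend. ABCC3, an exporter of glucuronide and glutathione conjugates, was at 24.4, 30.0 and 30.2 TPM and at 28.1, 23.2 and 30.1 TPM, with overlapping groups. The 3 genes that were not tested were near the bottom of the table. AKR1C1 was between 0.12 and 0.69 TPM, ABCC2 between 0.02 and 0.40 TPM, and AKR1B10 between 0 and 0.06 TPM, with no difference to be read at such levels.

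SOD2 was at 66.1, 68.6 and 68.8 TPM in buffer libraries and at 97.4, 104 and 88.3 TPM in treated libraries. The lowest treated library, Amuc_0904 replicate 3, was well above the highest buffer library, and the means were 67.8 ± 1.5 and 96.5 ± 7.75 TPM (SD, n = 3 each). The log2 fold change was 0.50 (SE 0.07, 95% interval 0.33 to 0.66, limma adjusted p = 0.021). It was 0.48 after removal of the GC trend, with an adjusted p of 0.074, 0.58 after centring (0.035) and 0.54 after quantile normalisation (0.026). The call held without Amuc_0904 replicate 3 (limma adjusted p = 0.027) and was lost without any other single library: 0.091 without Amuc_0904 replicate 1, 0.071 without replicate 2, and 0.070, 0.090 and 0.061 without buffer replicates 1, 2 and 3. With every gene above 0 in at least 1 library tested, the adjusted p was 0.10. Over the fits without single libraries the size of the difference was between 0.45 and 0.56.

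SOD2 (ENSG00000112096) lies on chromosome 6 from 159669057 to 159745186, minus strand, in GENCODE 29 on GRCh38. A second entry of the same symbol (ENSG00000285441), from 159679119 to 159762529 on the same strand, is absent from the deposited table. On the opposite strand SOD2 overlaps WTAP, and the strand protocol is not given in the sources used here, so reads of the overlap cannot be assigned by strand. WTAP was at 49.8 ± 4.16 TPM with buffer and 48.1 ± 1.92 TPM with Amuc_0904 (SD, n = 3 each), a log2 fold change of -0.04 (limma adjusted p = 0.79).

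The other enzymes of superoxide and hydrogen peroxide removal did not pass. SOD1, the cytosolic superoxide dismutase, was at 516, 500.5 and 510.3 TPM with buffer and at 548, 537 and 497 TPM with Amuc_0904. Its groups overlapped (log2 fold change 0.05, 95% interval -0.08 to 0.18, limma adjusted p = 0.66). The level of SOD2 relative to SOD1 was 0.128, 0.137 and 0.135 in buffer libraries and 0.178, 0.193 and 0.178 in treated libraries, again without overlap and chosen after the values were seen. SOD2 has 41.7% G and C in its transcript and SOD1 53.7%. After removal of the GC trend their log2 fold changes were 0.48 and 0.16. CAT, the peroxisomal catalase, was at 19.0, 17.6 and 19.6 TPM and at 17.1, 19.1 and 20.6 TPM. The treated libraries spread around the buffer libraries, and the log2 fold change was 0.01 (95% interval -0.20 to 0.22).

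Glutathione peroxidases reduce peroxides with glutathione, and GPX4 among them acts on lipid peroxides in membranes. GPX4 was at 667, 724 and 758 TPM in buffer libraries and at 687, 741 and 594 TPM in treated libraries. The groups overlapped except for Amuc_0904 replicate 3, which was the lowest, and the log2 fold change was -0.09 (95% interval -0.30 to 0.11, limma adjusted p = 0.60), or 0.10 after removal of the GC trend. GPX2, the gastrointestinal form, was barely present, at 1.20, 1.30 and 1.34 TPM with buffer and at 0.90, 1.10 and 0.69 TPM with Amuc_0904. All treated libraries were lower, but GPX2 was tested only because its buffer libraries and 1 treated library reached 1 TPM, and its wide interval (-0.63 to 0.09 on the log2 scale, limma adjusted p = 0.36) allows a difference of over 1.5-fold. GPX8, an enzyme of the endoplasmic reticulum, was at 10.8, 9.62 and 9.77 TPM and at 9.53, 7.25 and 12.2 TPM, and the treated libraries enclosed the buffer range. GPX1 was at 552 ± 33.7 and 566 ± 64.3 TPM (SD, n = 3 each).

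Peroxiredoxins are abundant thiol peroxidases, and the 6 genes together held more TPM than any other role group. PRDX1, the main cytosolic form, was at 887, 776 and 848 TPM in buffer libraries and at 921, 875 and 925 TPM in treated libraries. The groups overlapped through Amuc_0904 replicate 2 (log2 fold change 0.12, 95% interval -0.03 to 0.27, limma adjusted p = 0.34). PRDX2, also cytosolic, had a difference of the opposite sign, at 453, 464 and 449 TPM with buffer and at 412, 423 and 408 TPM with Amuc_0904. Its treated libraries were all lower, with a log2 fold change of -0.14 (95% interval -0.25 to -0.02, limma adjusted p = 0.18), which was 0.0038 after removal of the GC trend. PRDX4, the form of the endoplasmic reticulum, was at 139, 128 and 138 TPM and at 149, 138 and 148 TPM, with 1 treated library inside the buffer range. PRDX3 and PRDX5, both mitochondrial, and PRDX6 had log2 fold changes between -0.03 and 0.01, each with overlapping groups.

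**Figure D3:**
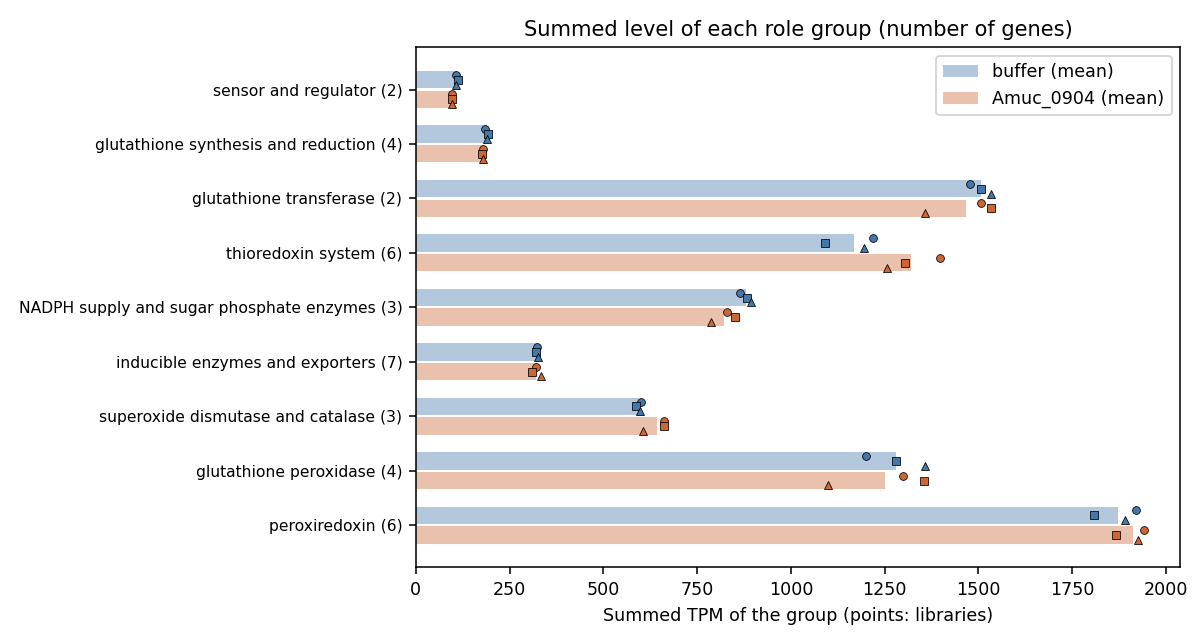
Summed TPM of the members of each role group, with the number of genes in brackets, bars for the means from 0 and a point for each library. The peroxiredoxins, glutathione transferases and glutathione peroxidases carry most of the TPM, and the groups of the thioredoxin system and of superoxide dismutase and catalase have all treated points to the right of the buffer points.

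Summed over all 37 genes the level was 7923 ± 156 TPM with buffer and 8009 ± 322 TPM with Amuc_0904 (SD, n = 3 each), with overlapping libraries. The sum of the thioredoxin system was 1168 ± 68.0 TPM with buffer and 1319 ± 73.1 TPM with Amuc_0904, a ratio of 1.13, and TXN supplied most of it. The sum of superoxide dismutases and catalase was 595.5 ± 7.68 TPM with buffer and 642.9 ± 31.8 TPM with Amuc_0904. In both of these sums the 3 treated libraries were above the 3 buffer libraries. The sums of NFE2L2 and KEAP1 (108.5 ± 2.28 and 97.2 ± 0.312 TPM), of glutathione synthesis and reduction (188.6 ± 3.84 and 178.4 ± 1.72 TPM) and of the NADPH and sugar phosphate enzymes (879.5 ± 15 and 821.5 ± 32.7 TPM) were lower in all 3 treated libraries. A sum gives most weight to its abundant genes, but its separation need not come from the most abundant one. SOD1 in the sum of superoxide dismutases and catalase, and GSS in that of glutathione synthesis and reduction, had overlapping groups. These sums are given as a description.

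In buffer libraries 17 of the genes were above 100 TPM. GSTP1 was alone at the top, TXN (839 ± 66.2 TPM) and PRDX1 (837 ± 56.3 TPM) followed with overlapping ranges, and GPX4 came next at 716 ± 46.3 TPM. GPX1, SOD1, PRDX2, TKT, TALDO1 and NQO1 followed in that order, each with buffer libraries that did not overlap those of its neighbours. The median coefficient of variation between libraries was 4.31% with buffer and 6.88% with Amuc_0904, and 27 of the 34 tested genes varied more among the treated libraries. The share over all tested genes was not computed, so this count cannot be read as a trait of the set.

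Higher or lower level went with the base composition of the transcript. Across the 34 genes the log2 fold change had a Pearson correlation of -0.44 and a Spearman correlation of -0.41 with transcript GC content, where the points share the same 6 libraries and are not independent. Over all 14277 tested genes with a GC value the correlations were -0.35 and -0.43. Of the 8 members under 45% G and C, 3 had lower means in treated libraries and the median log2 fold change was 0.06. Of the 13 members at 55% or more, 11 had lower means and the median was -0.09, which became 0.07 after removal of the GC trend. Over all members 22 of 34 had lower means in the deposited values, 13 after centring, 17 after quantile normalisation and 11 after removal of the GC trend, so the direction of the set as a whole depended on the scaling. SOD2 was the highest member in the deposited values and after removal of the GC trend, and TXN was next, in the second case level with GPX1 at 0.25.

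**Figure D4:**
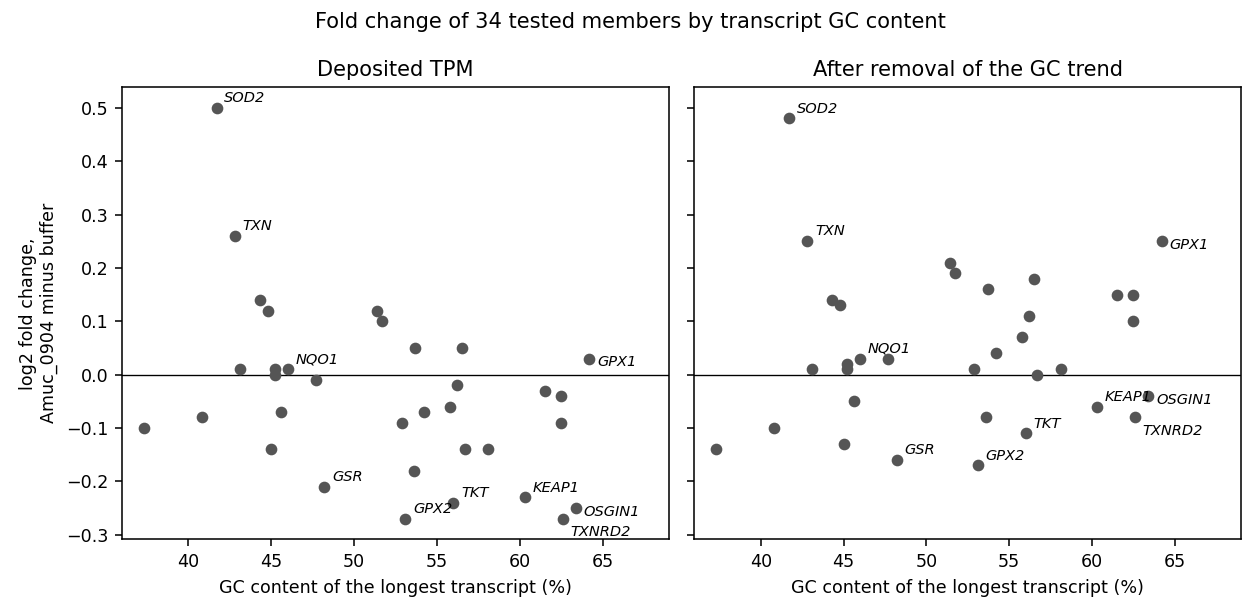
Log2 fold change of each tested gene against the GC content of its longest transcript, from the deposited TPM on the left and after removal of each library's GC trend on the right. On the left the GC-rich genes lie mostly below 0, and on the right 11 of 34 genes lie below 0, with SOD2 at 0.48.

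A wider list of 115 other redox genes was read from the same fit. Of its 96 tested genes 0 rose and 1 fell in limma's test (1.04%, beside 0.999% of all tested genes). At an unadjusted p under 0.05 in limma there were 25 (26.0%), beside 20.8% of all tested genes. The 16 lower genes (16.7%) were near the 16.3% of all tested genes. The 9 higher genes (9.38%) were a larger share than the 4.49% of all tested genes, a difference that was not tested. The gene that fell was SLC48A1, a heme transporter that moves heme out of endolysosomes, at 87.4, 99.0 and 84.7 TPM with buffer and at 62.8, 70.0 and 64.0 TPM with Amuc_0904. The groups were far apart (log2 fold change -0.45, SE 0.08, limma adjusted p = 0.038), but the call was lost whichever 1 of the 6 libraries was left out (adjusted p from 0.064 to 0.14) and after removal of the GC trend (-0.30, adjusted p = 0.063). With a filter of 5 TPM 4 genes of the list fell, SLC48A1 among them. At that filter the calls over the whole table also increased, from 197 to 432, and 354 of the 432 were lower.

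Among the other regulators of the NRF2 axis 0 of 12 tested genes passed. SQSTM1, the autophagy receptor that can sequester KEAP1, was at 479 ± 18.7 TPM with buffer and 544 ± 32.2 TPM with Amuc_0904 (SD, n = 3 each), all treated libraries higher, with a log2 fold change of 0.18 (limma adjusted p = 0.15) that was 0.34 after removal of the GC trend (adjusted p = 0.063). NFE2L3, a relative of NRF2, was at 103 ± 4.33 and 111 ± 10.3 TPM with overlapping groups. Of 22 tested target enzymes and transporters 18 had a log2 fold change below 0, beside 62.5% of all tested genes, and 4 above it, with a median log2 fold change of -0.13 that was -0.05 after removal of the GC trend.

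None of the other 5 lists had a gene past the threshold, with lowest limma adjusted p-values of 0.21 among glutathione enzymes, 0.058 among thioredoxin-fold and repair enzymes, 0.12 among peroxidases, 0.10 among oxidant sources and 0.11 among selenoprotein synthesis genes. PARK7, a redox-sensitive chaperone and deglycase, was at 387 ± 6.91 TPM with buffer and 433 ± 15.3 TPM with Amuc_0904, all treated libraries higher (log2 fold change 0.16, limma adjusted p = 0.14). MAOA, a mitochondrial amine oxidase that releases hydrogen peroxide, was at 28.4 ± 0.806 and 34.5 ± 2.33 TPM, also all higher (0.27, adjusted p = 0.10). GLRX5, a mitochondrial glutaredoxin of iron-sulfur cluster assembly, was at 206 ± 11.6 and 182 ± 5.07 TPM, all lower (-0.18, adjusted p = 0.15). TXNDC17, GSTO1, GGCT, PON2, CYBA, SELENOH and SELENOT, the other genes taken by level, had overlapping groups and log2 fold changes between 0.07 and 0.17. Of 15 oxidant source genes 9 were not tested, and the NADPH oxidase genes NOX1, CYBB and DUOX2 stayed at or below 0.07 TPM while NOX4 was listed at 0 in all 6 libraries.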

How the data were processed

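RNA of SW480 cells was sequenced in 6 libraries, 3 per treatment, and grouped by the treatment in the labels. The authors deposited a gene table in TPM, with RSEM named for quantification per the labels, and HISAT2, StringTie and edgeR named without versions or roles per the submitters' processing notes. Those notes name a mouse build (GRCm38.p6), while the identifiers are human Ensembl genes, so the annotation behind the values is uncertain. TPM keeps no depth, so no counting interval is given, and low genes are less certain than abundant ones.

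Values were taken as log2(TPM + 1), which understates changes of low genes. Genes with at least 1 TPM in at least 3 libraries were fitted in limma 3.58.1 (R 4.3.3, empirical Bayes with trend, two-sided), with Benjamini-Hochberg adjustment over all 14421 genes and an adjusted p under 0.05 as the threshold. Log2 fold changes are Amuc_0904 minus buffer. GC content (longest transcript, 99% of tested genes) and positions came from GENCODE 29. The GC trend of each library, taken relative to each gene's mean over the libraries, was removed by loess with a span of 0.3. The workflow was tested on simulated data. Figures used matplotlib 3.10.9 in Python 3.11.15.

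The members and lists were chosen with earlier results of these data known. Named members were those past the threshold, NFE2L2, KEAP1, HMOX1 and NQO1, and up to 3 per role group with the largest change. From each other list came up to 3 genes past the threshold or, with none, up to 2 of the highest mean level. The member genes left were given in brief. Of the members 17 overlap another annotated gene, so some of their reads may come from a neighbour. Alternatives were a pseudocount of 0.1, no filter or 5 TPM, a replicate block, each library left out, ribosomal protein and mitochondrial genes left out, centring, quantile normalisation, GC trend removal and an adjusted p under 0.01. Leaving out both libraries at the ends of the GC slopes was added after the data were seen.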

Additional observations from a re-analysis of the deposited data

How the results depend on the processing

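Counts of genes past the threshold over the whole table moved widely from 197: 117 with the GC trend removed, 85 centred, 102 quantile normalised, 432 with a filter of 5 TPM, 9 with no filter, 29 at an adjusted p under 0.01, 16 without buffer replicate 2 and Amuc_0904 replicate 3 (the ends of the GC slopes), and 35 to 112 with single libraries left out. With a pseudocount of 0.1 it was 184, and without ribosomal protein and mitochondrial genes 160. The members past the threshold went from 1 (SOD2) to 0 with the GC trend removed, with no filter, at an adjusted p under 0.01 and without both end libraries (SOD2 then at 0.57, adjusted p = 0.079), and were 0 to 1 with single libraries left out. The other redox genes went from 1 to 0 in those settings, after centring, after quantile normalisation and without any single library (0 to 0), and to 4 with a filter of 5 TPM. These counts are limma's throughout.

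No clear pairing by replicate number was seen. Deviations of same-numbered libraries correlated at -0.0287, 0.0752 and -0.0938 over 14421 genes, and not every library correlated best with its own number. Correlations this small cannot settle whether the libraries were paired. With the replicate number as a block the calls were 80 over all genes, 0 among members (SOD2 adjusted p = 0.060) and 0 among the other redox genes.

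The median log2 fold change of members, -0.05, became 0.03 with the GC trend removed, 0.03 centred, 0.00 quantile normalised, -0.03 without ribosomal protein and mitochondrial genes and -0.07 to -0.02 with single libraries left out. Of the 26 named members, none past the threshold but SOD2, the following turned sign. Centred: NFE2L2 0.01, GSTP1 0.04, GSTK1 0.07, ABCC3 0.02, GPX8 0.0015. GC trend removed: GSTP1 0.15, GSTK1 0.03, PGD 0.01, HMOX1 0.01, ABCC3 0.07, GPX4 0.10, PRDX2 0.0038. Quantile normalised: GSTK1 0.02, ABCC3 0.03, GPX8 0.0048. Without ribosomal protein and mitochondrial genes: GSTK1 0.01. Without both end libraries: GSTP1 0.02, NQO1 -0.03, CAT -0.09, GPX4 0.0048. With single libraries left out the values ran from -0.08 to 0.02 for GSTP1, -0.02 to 0.0018 for GSTK1, -0.02 to 0.03 for NQO1, -0.15 to 0.05 for ABCC3, -0.05 to 0.08 for CAT and -0.25 to 0.09 for GPX8. The cause of these shifts was not tested. The depth of the libraries is unknown, so what it limits cannot be given.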
